A study of Arabidopsis thaliana with 6 samples.

Results

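The VAP27 genes of Arabidopsis thaliana encode plant members of the VAP family, and 7 of their loci were followed through 6 microarrays: AT5G54110 (MAMI), AT4G21450, AT4G05060, AT5G47180, AT4G00170, AT2G23830 and AT1G51270. They were chosen by locus, as every probe set annotated to 1 of these loci only, and were 7 of the 13286 genes measured in this way. A probe set is a group of short probes on an Affymetrix array, read together as 1 value for the transcripts they match. The 7 loci had 8 probe sets, because AT1G51270 had 2. The relatives VAP27-1, VAP27-2 and PVA12 were not analysed here.

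RNA came from whole seedlings aged 5 days, grown without treatment on OS medium in cycles of 16 h light and 8 h dark. TaVAPOE was the wild type carrying an overexpressed TaVAP, the atvap mutant was a line so named, and the wild type was the control for both, with 2 biological replicates, and so 2 arrays, per genotype. The series is titled as a study of the role of TaVAP in stress tolerance. The labels state neither the mutated locus and its allele nor the promoter of the transgene, the number of independent lines or the accession of the plants. RefSeq lists (AT)VAP among the synonyms of VAP27-1, but the labels do not tie the mutant to that gene. They name no cultures or plants behind a replicate, so the tests below measure only the spread between these arrays.

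VAP proteins are anchored in the membrane of the endoplasmic reticulum (ER) by a tail at one end, and carry at the other a major sperm protein domain that binds partner proteins. In this way they tie the ER to the plasma membrane, to endosomes and to lipid transfer proteins. In plants VAP27-1 sits with the actin-binding protein NET3C at contact sites between the ER and the plasma membrane. By sequence, MAMI, AT4G21450 and AT4G05060 form one subgroup of the family. AT5G47180 belongs with VAP27-2, and AT4G00170 and AT2G23830 belong with VAP27-1 and PVA12.

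The deposited values are on a log scale of unstated base, and differences are given in its log units. Both TaVAPOE arrays, mutant replicate 2 and wild-type replicate 2 correlated with each other at Pearson r of 0.935 to 0.979 over 22746 probe sets, and are called the 4 concordant arrays here. Mutant replicate 1 reached at most 0.194 with any array, and wild-type replicate 1 reached 0.518 to 0.526 with the 4. These correlations run across probe sets, which are not independent replicates. The 99th percentile of values was 7.65 to 7.78 log units on the 4 arrays, while it was 4.84 on mutant replicate 1 and 5.78 on wild-type replicate 1. Of 7 genes listed as markers of green tissue 5 were measured, and their mean was 7.99 and 8.05 log units on the TaVAPOE arrays, 3.16 and 7.91 on the mutant arrays, and 7.08 and 7.97 on the wild-type arrays. The mean of the green-tissue markers was thus low on mutant replicate 1 and high on the 4 concordant arrays. On mutant replicate 1 RCA (4.07) and PSAE-1 (4.15) still lay above the array's median of 2.88. LHCB4.1, LHCB4.2 and LHCB4.3 lay below it. On wild-type replicate 1 LHCB4.2 (3.94) and LHCB4.3 (4.28) were low, while LHCB4.1, RCA and PSAE-1 read 9.03 to 9.09. The part of these array differences in the results below was not tested, and the plot of differences shows the fits to all 6 arrays and to the 4 concordant arrays side by side. In whole seedlings, fewer cells that express a gene and less RNA per cell cannot be told apart.

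On the 4 concordant arrays AT4G21450, MAMI, AT4G05060, AT4G00170 and AT5G47180 lay in the upper part of the array, and AT2G23830 lay near the bottom. There AT1G51270 had no steady level, and ranged from the 19.0 percentile (265135_at) to the 83.7 percentile (265136_at). A percentile within an array is the share of the 22746 probe sets that read at or below the one in question. Probe sets differ in how strongly they bind, so the order of paralogs by percentile is an order of signals and not of transcript amounts. The median percentile over the 8 probe sets was 66.3 and 66.8 on the TaVAPOE arrays, 21.4 and 73.8 on the mutant arrays, and 59.4 and 70.9 on the wild-type arrays. Of the 8 probe sets, 5 lay above the array's median on each TaVAPOE array, 3 and 7 on mutant replicates 1 and 2, and 5 and 6 on wild-type replicates 1 and 2. The low family median on mutant replicate 1 came with its low correlation to every other array.

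**Figure D1:**
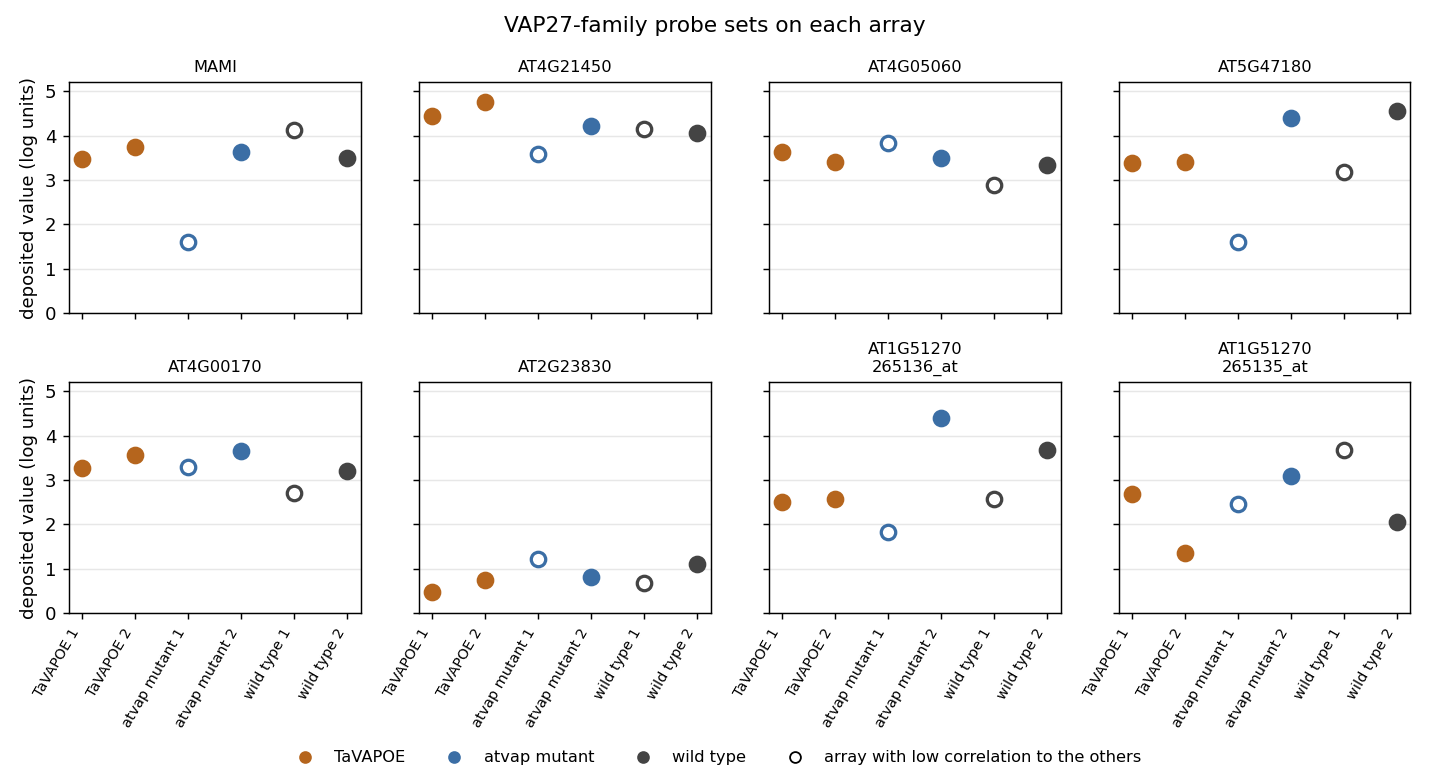
Deposited value in log units (vertical axis) of each of the 8 probe sets on each of the 6 arrays (horizontal axis), by genotype, with 1 point per array and open points for mutant replicate 1 and wild-type replicate 1. AT5G47180 and probe set 265136_at of AT1G51270 were lower on both TaVAPOE arrays than on mutant replicate 2 and wild-type replicate 2, while MAMI, AT4G05060 and AT4G00170 lay close together on these 4 arrays.

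**Figure D2:**
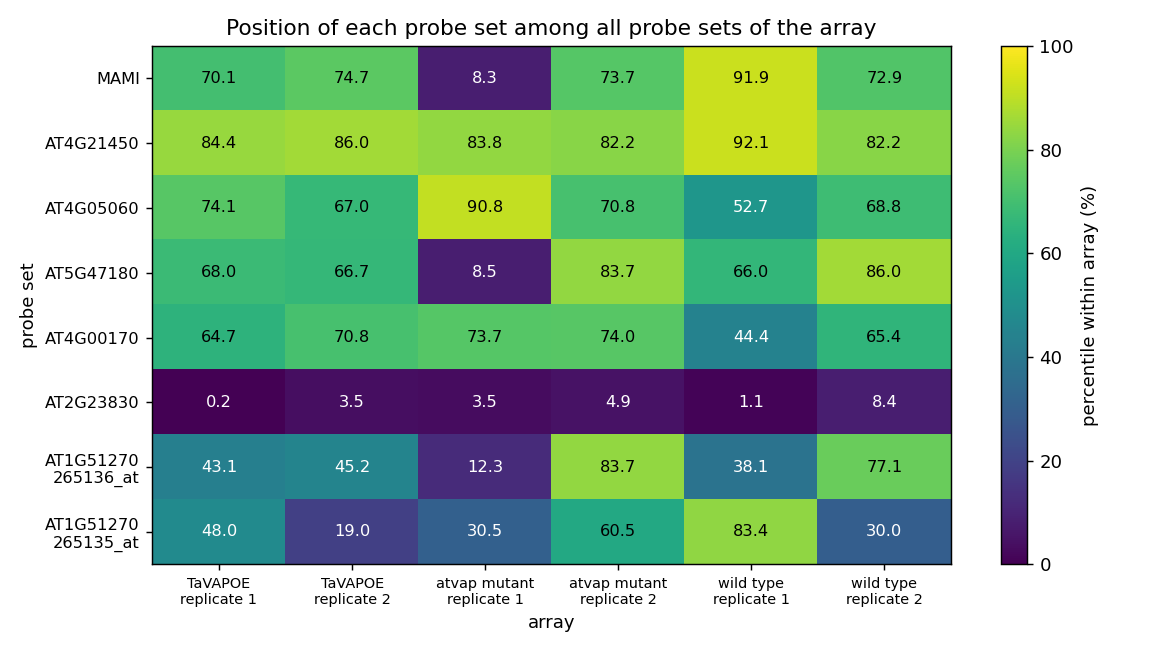
Percentile within the array, in percent (colour and printed value), for the 8 probe sets (rows) on the 6 arrays (columns). AT4G21450 stayed between 82.2 and 92.1 on all 6 arrays and AT2G23830 at or below 8.4, while MAMI and AT5G47180 dropped to 8.3 and 8.5 on mutant replicate 1.

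In the subgroup named first, MAMI and AT4G05060 showed little separation of the genotypes on the 4 concordant arrays, while AT4G21450 read highest in TaVAPOE without passing the test. MAMI, whose name stands for membrane-associated mannitol-induced, read 3.47 and 3.74 log units in TaVAPOE, 1.60 and 3.64 in the mutant, and 4.13 and 3.50 in the wild type. The 2 arrays that stand apart held the lowest and the highest of these values, and the other 4 spanned the 70.1 to the 74.7 percentile. On those 4 the order was mutant, TaVAPOE, wild type, with steps of 0.033 and 0.11 log units, both smaller than the 0.27 between the TaVAPOE replicates. The difference of -1.20 ± 0.76 log units between mutant and wild type over 6 arrays (SE, n = 2 arrays per genotype, limma adjusted p = 0.9999) became 0.14 ± 0.25 over the 4 concordant arrays.

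AT4G21450 had the narrowest range of percentiles among the genes in the upper part of the array, 9.90 points over 6 arrays, though not the narrowest range of log values. It read 4.43 and 4.76 log units in TaVAPOE, 3.57 and 4.22 in the mutant, and 4.14 and 4.05 in the wild type. Both TaVAPOE arrays lay above all 4 others. TaVAPOE exceeded the mutant by 0.70 ± 0.48 (adjusted p = 0.865) and the wild type by 0.50 ± 0.48 (adjusted p = 0.870) in the limma fit to 6 arrays, so neither difference passed. On the 4 concordant arrays TaVAPOE stood 0.37 above the mutant, little more than the 0.32 between its own replicates, and the mutant 0.17 above the wild type. TaVAPOE exceeded the wild type there by 0.54 ± 0.23 (limma adjusted p = 0.279), which is above the gap between its replicates, and 88.5% of all probe sets had a difference as low or lower. The direction against the wild type depended on the scale: in percentiles AT4G21450 was at 84.4 and 86.0 in TaVAPOE, between the 92.1 and 82.2 of the wild type. After quantile normalization the difference was -0.29.

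In log units AT4G05060 read lowest on the wild-type arrays. Its values were 3.64 and 3.41 log units in TaVAPOE, 3.84 and 3.51 in the mutant, and 2.89 and 3.33 in the wild type. The margin between the lowest altered-line array and wild-type replicate 2 was small, and on the 4 concordant arrays TaVAPOE exceeded the wild type by 0.19 ± 0.21 and the mutant exceeded it by 0.17 ± 0.24. The 0.23 between the TaVAPOE replicates was larger than both. In percentiles AT4G05060 lay at 67.0 to 74.1 on the 4 concordant arrays, at 90.8 on mutant replicate 1 and at 52.7 on wild-type replicate 1. It was thus high on the very array on which MAMI and AT5G47180 were low.

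AT4G00170, a relative of VAP27-1 and PVA12, showed the same placing of the wild type. It read 3.28 and 3.56 log units in TaVAPOE, 3.30 and 3.66 in the mutant, and 2.71 and 3.20 in the wild type, so that both wild-type arrays lay below all 4 others. The mutant exceeded the wild type by 0.52 ± 0.47 (adjusted p = 0.9999) and TaVAPOE exceeded it by 0.46 ± 0.47 (adjusted p = 0.870) over 6 arrays in limma, and both comparisons share the wild-type arrays. Over the 4 concordant arrays these differences were 0.46 ± 0.25 and 0.21 ± 0.22. In percentiles the mutant, at 73.7 and 74.0, stayed above the wild type, at 44.4 and 65.4, while TaVAPOE replicate 1, at 64.7, lay just under wild-type replicate 2.

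On log values AT4G05060 and AT4G00170 were the 2 of 8 probe sets with both wild-type arrays below all 4 arrays of the altered lines. This pattern was held by 5.46% of all probe sets. None of the 8 had the wild type above all 4, against 4.23% of all probe sets. With 8 probe sets, this count is a description and not a test. In percentiles neither AT4G05060 nor AT4G00170 had both wild-type arrays below all 4 others. Wild-type replicate 2 held AT4G05060 at 68.8, above the 67.0 of TaVAPOE replicate 2. It held AT4G00170 at 65.4, above the 64.7 of TaVAPOE replicate 1.

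AT2G23830, the other relative of VAP27-1 measured, gave almost no signal. It read 0.48 and 0.74 log units in TaVAPOE, 1.23 and 0.82 in the mutant, and 0.68 and 1.11 in the wild type. All 6 values fell below 1.66, the 20th percentile over all values, and no array placed it above the 8.37 percentile. Values this low have no firm order, and the counts below name AT2G23830 where it enters as a non-overlapping probe set.

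AT5G47180, the relative of VAP27-2, was lower in TaVAPOE than on the concordant arrays of the other genotypes. It read 3.38 and 3.40 log units in TaVAPOE, 1.61 and 4.39 in the mutant, and 3.18 and 4.56 in the wild type. On the concordant arrays the order was wild type, mutant, TaVAPOE. The first step, 0.17, was of the size of the median gap between TaVAPOE replicates over all probe sets (0.191). The second, 1.001, was far above the 0.015 between the TaVAPOE replicates of this gene, a gap at the 4.62 percentile of all probe sets. In the limma fit to the 4 arrays TaVAPOE differed from the wild type by -1.17 ± 0.19 (adjusted p = 0.0921) and from the mutant by -1.001 ± 0.19 (adjusted p = 0.164). A difference of -1.17 is 2.25-fold lower if the log has base 2 and 3.21-fold lower if it is natural. Only 2.49% of all probe sets had a difference from the wild type as low or lower.

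Wild-type replicate 1 did not place AT5G47180 above TaVAPOE, and mutant replicate 1 placed it far below. In percentiles it was at 68.0 and 66.7 in TaVAPOE, 8.5 and 83.7 in the mutant, and 66.0 and 86.0 in the wild type. Over 6 arrays the difference between TaVAPOE and wild type was -0.48 ± 1.01 (adjusted p = 0.922), and between TaVAPOE and mutant it turned to 0.39 ± 1.01 (adjusted p = 0.942). Without wild-type replicate 2 the difference from the wild type was 0.21. The order of genotypes for this gene therefore rests on replicate 2 of the mutant and of the wild type.

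The 2 probe sets of AT1G51270 disagreed on which arrays were high. RefSeq lists 15 transcripts for this locus, against 1 to 3 for each of the other 6, and the table used here does not give the place of either probe set on them. Probe set 265136_at read 2.50 and 2.56 log units in TaVAPOE, 1.83 and 4.39 in the mutant, and 2.56 and 3.69 in the wild type. Probe set 265135_at read 2.68 and 1.36 in TaVAPOE, 2.46 and 3.10 in the mutant, and 3.67 and 2.05 in the wild type. Within the wild type, replicate 2 minus replicate 1 was 1.12 for 265136_at and -1.62 for 265135_at. Wild-type replicate 1 was thus the brightest of the 6 arrays for 265135_at and lay at the TaVAPOE level for 265136_at.

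The TaVAPOE replicates separated the 2 probe sets further. For 265136_at they differed by 0.064 log units, and for 265135_at by 1.32, a gap larger than that of 99.6% of all probe sets between these replicates. In percentiles 265136_at was at 43.1 and 45.2 in TaVAPOE, 12.3 and 83.7 in the mutant, and 38.1 and 77.1 in the wild type. The other probe set, 265135_at, was at 48.0 and 19.0 in TaVAPOE, 30.5 and 60.5 in the mutant, and 83.4 and 30.0 in the wild type. Both probe sets had mutant replicate 2 as the highest of the 4 concordant arrays, and both lay below their own mean on TaVAPOE replicate 2 and mutant replicate 1.

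For 265136_at the concordant arrays gave the order mutant, wild type, TaVAPOE, with steps of 0.71 and 1.16 log units, each above the 0.064 between TaVAPOE replicates. TaVAPOE differed from the mutant by -1.86 ± 0.19 (limma adjusted p = 0.0912) and from the wild type by -1.16 ± 0.19 (adjusted p = 0.0935), and the mutant from the wild type by 0.71 ± 0.22 (adjusted p = 0.330). None of these passed, although only 0.273% of all probe sets were as low or lower in TaVAPOE against the mutant. For 265135_at the order was the same in name, but the steps were 1.054 and 0.023, both smaller than the 1.32 between its TaVAPOE replicates. Its TaVAPOE and wild-type values did not separate (-0.023 ± 0.58, adjusted p = 0.987), and its difference from the mutant was -1.08 ± 0.58 (adjusted p = 0.478). Over 6 arrays 265136_at differed by -0.58 ± 0.93 and 265135_at by -0.76 ± 0.77 between TaVAPOE and mutant, and neither passed.

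How far 2 probe sets of a gene part was then measured over all 139 genes with exactly 2 such probe sets. The measure was the root-mean-square difference over arrays after each probe set was centred on its own mean. Over the 4 concordant arrays AT1G51270 had 0.695 log units against a median of 0.328 over the 139 genes, and 8 genes, itself included, had at least as much. Over 6 arrays it had 1.051 against a median of 0.816, and 37 genes had at least as much. The disagreement at AT1G51270 was thus in the upper part of the range on the concordant arrays, and less so on all 6.

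**Figure D3:**
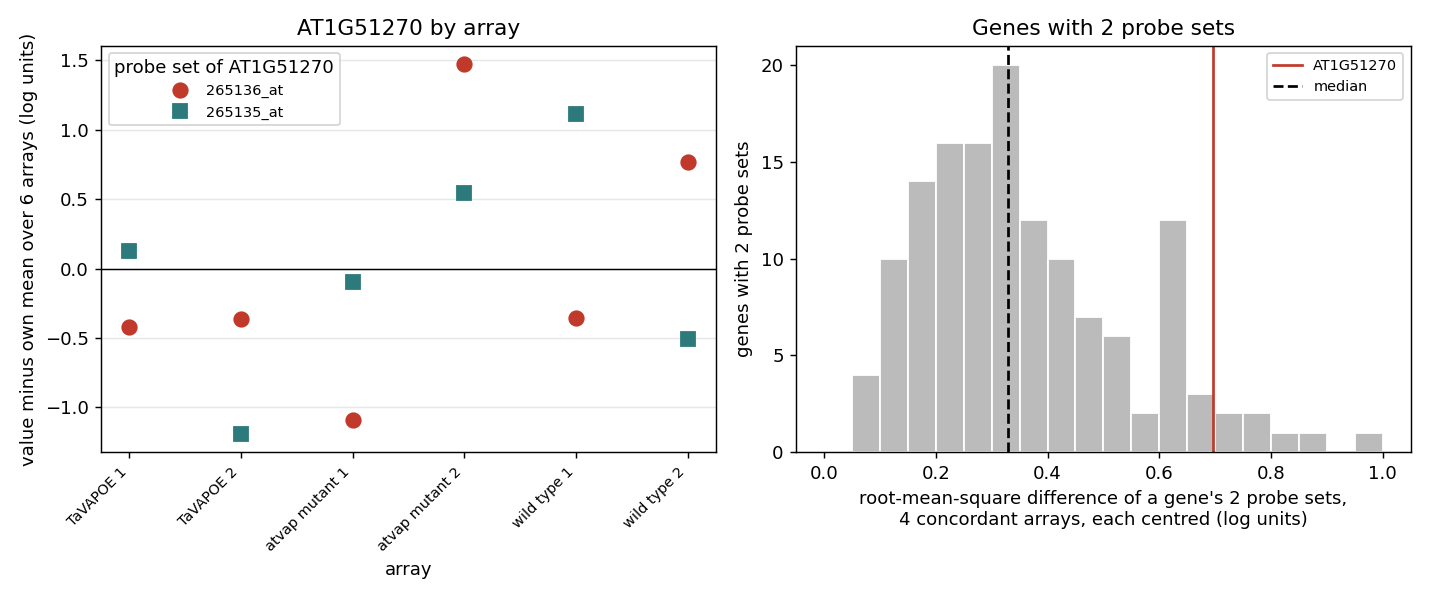
On the left, the value of each AT1G51270 probe set on each array minus its own mean over 6 arrays, in log units; on the right, the number of genes (vertical axis) by the root-mean-square difference between their 2 probe sets over the 4 concordant arrays, with AT1G51270 and the median of 139 genes as lines. The probe sets lie on opposite sides of 0 on 3 of the arrays, TaVAPOE replicate 1 and both wild-type arrays, and AT1G51270 lies at 0.695 against a median of 0.328.

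Across the family, none of the 8 probe sets passed in any comparison. In the limma fit to 6 arrays 0 passed between TaVAPOE and wild type, where 0% of all 22746 probe sets were called; 0 of 8 had an unadjusted p under 0.05, against 2.14% of all. Between mutant and wild type the counts were again 0 of 8, with 0% of all probe sets called and 0.958% at an unadjusted p under 0.05. Between TaVAPOE and mutant they were 0 of 8, with 0% called and 1.31% at an unadjusted p under 0.05. The limma adjusted p of the 8 ran from 0.870 to 0.963 between TaVAPOE and wild type and from 0.865 to 0.982 between TaVAPOE and mutant. The standard errors over 6 arrays were 0.47 to 1.01 log units, so differences of that size could not be resolved.

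The median difference over the 8 probe sets was -0.25 log units between TaVAPOE and wild type, -0.047 between mutant and wild type, and -0.10 between TaVAPOE and mutant, over 6 arrays. The medians over all probe sets were 0.030, 0.0042 and -0.047. Over the 4 concordant arrays the family medians were 0.044, 0.17 and -0.23, against -0.0062, 0.010 and 0.0025 over all probe sets. The signs of the 8 differences, none of which passed, were mixed. In TaVAPOE against wild type 3 of 8 were positive over 6 arrays, beside 51.6% of all probe sets, and 4 of 8 over the concordant arrays, beside 49.3%. In mutant against wild type 3 of 8 were positive over 6 arrays, beside 50.3%, and 6 of 8 over the concordant arrays, beside 51.0%. In TaVAPOE against mutant it was 3 of 8 over 6 arrays, beside 47.5%, and 2 of 8 over the concordant arrays, beside 50.3%.

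The probe sets whose groups did not overlap were then counted against all probe sets. Over 6 arrays both TaVAPOE arrays lay above both wild-type arrays for 3 of 8 probe sets (AT4G21450, AT4G05060 and AT4G00170), against 25.3% of all probe sets. They lay below for 1 of 8 (265136_at, by under 0.01 log units), against 20.8%. On percentiles 0 of 8 separated in either direction, against 22.9% higher and 17.1% lower. The mutant lay above the wild type for 2 of 8 (AT4G05060 and AT4G00170), against 10.7%, and below it for 0 of 8, against 7.28%. On percentiles the same 2 lay above, against 13%, and 0 below, against 10.6%. No member was therefore lower on both mutant arrays than on both wild-type arrays. TaVAPOE lay above the mutant for AT4G21450, against 19.8%, and below it for AT2G23830, against 19.7%. On percentiles AT4G21450 again lay above, against 21%, and AT4G00170 lay below, against 17.9%.

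On the 4 concordant arrays both TaVAPOE arrays lay below the mutant and the wild type for 3 of 8 probe sets (AT5G47180, 265136_at and the dim AT2G23830), against 22.7% of all probe sets. They lay above for 1 of 8 (AT4G21450), against 23.2%. In the fit to these arrays 0 of 8 passed between TaVAPOE and wild type, where 0.0396% of all were called, with 2 of 8 at an unadjusted p under 0.05 against 21.1%. Between TaVAPOE and mutant it was 0 of 8 against 0.0659% called, and 2 of 8 against 14.8%, and between mutant and wild type 0 of 8 against 0% called, and 1 of 8 against 13%. The spread in this fit comes from the TaVAPOE replicates alone, with 1 residual degree of freedom, and the lone mutant and wild-type arrays are taken to vary alike.

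**Figure D4:**
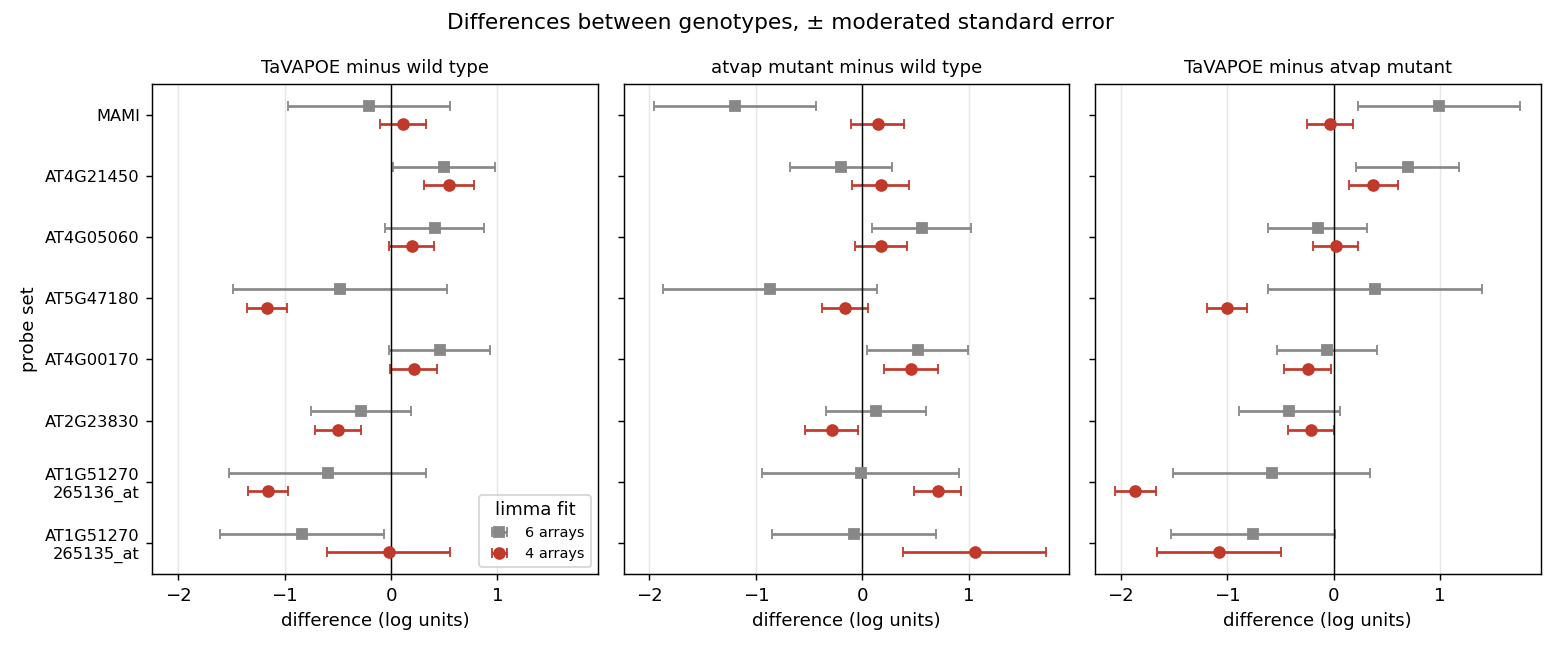
Difference between genotypes in log units (horizontal axis) for the 8 probe sets (rows) in the limma fits to 6 arrays (grey squares) and to the 4 concordant arrays (red circles), with bars of 1 moderated standard error. AT5G47180 and 265136_at lie at -1.17 and -1.16 in TaVAPOE against wild type over the 4 arrays, with wide bars over 6 arrays.

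The genes whose arrays most resembled AT5G47180 and AT1G51270 were then ranked by the root-mean-square difference over 6 arrays after centring, among the single-gene probe sets of other loci, 13435 for AT5G47180. For AT5G47180 these were AT2G37540 (0.162 log units), the expansin-like gene EXLA2 (0.237) and TBL37, of the trichome birefringence-like family (0.252). AT2G37540 read 4.55 and 4.55 in TaVAPOE, 2.77 and 5.72 in the mutant, and 4.56 and 5.43 in the wild type. For 265136_at they were AT1G61100 (0.176), AT5G20050 (0.177) and AT3G16700 (0.177). For 265135_at they were AT1G26250 (0.174), the transcription factor gene CES (0.218) and AT1G71200 (0.255). The 2 probe sets of AT1G51270 lie 1.051 log units apart by this measure, so these lists could not share a gene. AT1G26250 read 2.56 and 1.19 in TaVAPOE, 2.77 and 3.12 in the mutant, and 3.49 and 2.12 in the wild type, with the same wide gap between TaVAPOE replicates. The ranking covers 6 arrays that include the 2 which stand apart.

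Genes of ER contact sites and ER shape formed the wider list: synaptotagmins, which tether the ER to the plasma membrane, actin-binding NET3 proteins, EH-domain proteins of endocytosis, RHD3-like GTPases, which fuse ER tubules, lunapark proteins, reticulons and lipid-binding proteins related to oxysterol-binding protein. No listed synaptotagmin or relative of oxysterol-binding protein was measured, and AT2G46170 was the only reticulon measured. The results for the list therefore do not cover the synaptotagmins or the oxysterol-binding-protein relatives. Of 34 listed genes 11 were measured, and 0 of 11 passed in any of the 3 comparisons in limma over 6 or 4 arrays. Over 6 arrays 0 of 11 had an unadjusted p under 0.05 in any comparison. Over the 4 concordant arrays 3 of 11 did between TaVAPOE and wild type, 0 between mutant and wild type and 4 between TaVAPOE and mutant, beside the 21.1%, 13% and 14.8% of all probe sets. The list median was -0.0066 log units between TaVAPOE and wild type, with 5 genes higher and 6 lower, 0.19 between mutant and wild type, with 7 higher and 4 lower, and -0.026 between TaVAPOE and mutant, with 5 higher and 6 lower, over 6 arrays. The concordant arrays gave a list median of -0.16 between TaVAPOE and wild type, with 2 higher and 9 lower, and 0.010 between TaVAPOE and mutant, with 6 higher and 5 lower. Between mutant and wild type the list median turned to -0.11 there, with 4 higher and 7 lower.

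The reticulon gene AT2G46170, whose family curves ER tubules, was brightest on the TaVAPOE arrays. It read 4.61 and 4.90 log units in TaVAPOE, 2.75 and 4.05 in the mutant, and 2.64 and 3.79 in the wild type. Both TaVAPOE arrays lay above all others. Of all probe sets, 25.3% had both TaVAPOE arrays above the wild type and 19.8% had both above the mutant. In the limma fit to 6 arrays TaVAPOE exceeded the wild type by 1.54 ± 0.67 (adjusted p = 0.870) and the mutant by 1.35 ± 0.67 (adjusted p = 0.865). Neither difference passed. Over the 4 concordant arrays the differences were 0.97 ± 0.22 and 0.70 ± 0.22.

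The lunapark gene AT4G31080, whose product sits at ER junctions, read 3.89 and 3.79 in TaVAPOE, 3.95 and 4.37 in the mutant, and 1.73 and 3.87 in the wild type. Its differences from the wild type, 1.04 ± 0.77 in TaVAPOE and 1.36 ± 0.77 in the mutant, rested on wild-type replicate 1, and over the 4 concordant arrays they were -0.026 ± 0.19 and 0.50 ± 0.22. The EH-domain gene AT1G20760 differed by 1.11 ± 0.87 between TaVAPOE and wild type, and by -0.036 ± 0.33 over the 4 arrays. Between mutant and wild type the EH-domain gene AT1G21630 differed by -1.57 ± 0.81 and the RHD3-like gene AT1G72960 by 2.23 ± 1.23, and over the 4 arrays by -0.12 ± 0.23 and -0.54 ± 0.22. Between TaVAPOE and mutant NET3B differed by -1.35 ± 0.77 and AT1G21630 by 1.40 ± 0.81, and over the 4 arrays by -0.28 ± 0.25 and 0.26 ± 0.20.

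SRC2, a C2-domain protein on the same list, was picked after its values were seen. It ordered the arrays much as AT5G47180 did, except that mutant replicate 2 lay above wild-type replicate 2. It read 6.71 and 7.06 log units in TaVAPOE, 2.81 and 8.503 in the mutant, and 6.34 and 8.16 in the wild type. Over the 4 concordant arrays TaVAPOE differed by -1.27 ± 0.24 from the wild type (limma adjusted p = 0.102) and by -1.62 ± 0.24 from the mutant (adjusted p = 0.127).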

How the data were processed

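Biotinylated cRNA from 3 µg of total RNA was hybridized to Affymetrix arrays, per the labels' protocols. The deposited values are log-scale probe-set scores. Agilent Feature Extraction, a tool for another maker's arrays, is the software given in the submitters' processing notes. On summarisation, normalization and log base, nothing is given in the sources used here. Values were kept as deposited. The 64 control probe sets were left out, and 22746 were tested. Of these, 13513 have 1 gene in the platform annotation, 503 several and 8730 none here; 13436 matched the RefSeq table of TAIR10.1 through Entrez identifiers.

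Comparisons were contrasts in 1 limma fit (version 3.58.1, R 4.3.3) to 6 arrays, with 1 mean for each genotype, 3 residual degrees of freedom and Benjamini-Hochberg adjustment over all probe sets at 0.05. Errors after ± are moderated standard errors. The fixed design allowed for log2 values; the base is unknown here, and the test does not depend on it. Scripts were tested on simulated data.

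Members and lists were chosen with earlier results of these data known. All members were named, the 3 most alike genes for AT5G47180 and each AT1G51270 probe set, and up to 3 genes of the ER list per comparison with the smallest p. Of several probe sets of a listed gene the brightest was used. Alternatives were quantile normalization, a filter at the 40th percentile, a floor at the 20th percentile, within-array percentiles, the replicate number as a block, 4 arrays, array weights, and leaving out each array. Precision is limited by 2 arrays per genotype.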

Additional observations from a re-analysis of the deposited data

How the results depend on the processing

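None of the 8 family probe sets passed in limma in any comparison under any alternative that could be run; the smallest adjusted p was 0.0912, over the 4 concordant arrays. Among all probe sets 0 passed in each comparison, except over the 4 arrays, where 9 passed between TaVAPOE and wild type and 15 between TaVAPOE and mutant, and with array weights, where 3 passed between TaVAPOE and wild type; leaving out any 1 array gave 0. With the replicate number as a block 0 passed in each comparison and no family call changed. Same-numbered arrays deviated together with r of 0.580 for mutant and wild type, 0.088 for TaVAPOE and mutant and 0.014 for TaVAPOE and wild type. Each deviation comes from the gap between a genotype's 2 arrays, so r does not show which replicate number the genotypes share. Between mutant and wild type, the replicate 2 arrays correlated at 0.957 and the replicate 1 arrays at 0.0724. What lies behind the r of 0.580 was not tested. The labels state no pairing, and the main fit did not pair the arrays.

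Directions of family members turned as follows; none was a call, and the cause was not tested. AT4G21450 in TaVAPOE against wild type turned to -0.29 after quantile normalization and to -1.97 percentile points within arrays. AT2G23830 in mutant against wild type turned to -0.55 percentile points, and could not be given a value with the floor, since it lies below it on all 6 arrays. Over the 4 arrays MAMI turned to 0.11 in TaVAPOE against wild type, 0.14 in mutant against wild type and -0.033 in TaVAPOE against mutant. In mutant against wild type AT4G21450 turned to 0.17, AT1G51270 to 1.054 (265135_at) and 0.71 (265136_at), and AT2G23830 to -0.29. In TaVAPOE against mutant AT5G47180 turned to -1.001 and AT4G05060 to 0.019.

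Leaving out 1 array at a time gave ranges that cross 0. In TaVAPOE against wild type they were -0.53 to 0.11 for MAMI and -1.17 to 0.21 for AT5G47180. In mutant against wild type they were -2.26 to 0.52 for AT5G47180, -0.52 to 0.13 for AT4G21450, -0.89 to 0.73 for 265135_at, -1.30 to 1.27 for 265136_at and -0.083 to 0.34 for AT2G23830. In TaVAPOE against mutant they were -0.033 to 2.01 for MAMI, -1.001 to 1.78 for AT5G47180, -0.31 to 0.019 for AT4G05060, -0.24 to 0.12 for AT4G00170 and -1.86 to 0.70 for 265136_at.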

Other observations

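NET3C and NET3B, the actin-binding partners on the ER contact-site list, read highest on mutant replicate 1, where NET3B lay close to the array's median of 2.88 log units and NET3C above it. NET3C read 1.44 and 1.19 log units in TaVAPOE, 4.34 and 1.18 in the mutant, and 1.20 and 1.45 in the wild type. NET3B read 0.79 and 0.37 in TaVAPOE, 3.00 and 0.86 in the mutant, and 0.75 and 1.03 in the wild type. NET3A differed little between arrays, at 2.32 and 2.26 in TaVAPOE, 2.52 and 2.28 in the mutant, and 2.48 and 2.45 in the wild type. These genes were picked after their values were seen.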
